A study of Mus musculus with 6 samples.

Results

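Kruppel-like factors (KLFs) are transcription factors that bind GC-rich and CACCC sequences through zinc fingers at their C-terminal end. Chromatin accessibility in mouse kidney is described here at 10 genes of this family, Klf1, Klf2, Klf4, Klf5, Klf6, Klf9, Klf10, Klf13, Klf15 and Klf17. They were taken by name, among 21757 protein-coding genes of the GENCODE M39 annotation on GRCm39. A gene region ran from 3 kb upstream of the gene start to the gene end, along the gene's strand, and an accessible interval belonged to a gene when it overlapped that region. In all, 42 of the 279569 distinct intervals of the peak list overlapped the regions of 9 of the 10 genes, and Klf17 had none.

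Accessibility was measured by ATAC-seq, in which the Tn5 transposase inserts adapters into open chromatin, on nuclei from kidney cortex. The 3 WT libraries (batches 1, 1 and 2) came from mice with floxed Acly alleles and no Cre by the study's methods, and the 3 Acly cKO libraries (batches 4, 4 and 5) from mice in which Ksp-Cre, driven in kidney tubular epithelium, deletes Acly, the gene of ATP-citrate lyase. All 6 libraries are labelled as control treatment, and no age is given in the labels. No batch holds both genotypes, so effects of batch and of genotype cannot be told apart. The peak list is a single call on all libraries pooled, with no column for any library. Loss of Acly could therefore not be checked in single samples, no value carries a replicate error, and the genotypes could not be compared at any Klf gene. The pool mixes cortical cell types, so a low value from few open cells and a low value from weak opening in many cells cannot be told apart.

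KLFs fall into groups by the partners of their N-terminal parts. Klf1, Klf2, Klf4, Klf5 and Klf6 are mostly known as activators that recruit acetyltransferases, Klf9, Klf10 and Klf13 bind the Sin3 corepressor, and Klf15 and Klf17 stand outside these groups. In the kidney, members of the family are known for roles in podocytes, endothelium, collecting duct and the response of tubules to injury and to glucocorticoids.

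Each interval is given by its highest summit, the position of the peak of stacked reads, and by 2 values of the authors' caller. Fold enrichment is the height of the pooled stack over a background expected genome-wide, and -log10 q is the caller's significance, which ranked the intervals in the same order. The fold values were whole multiples of a step of 0.0655, so the number of steps stood for the number of stacked reads and gave a counting interval (exact Poisson, 95%), which covers counting error in the pool only. Distances are from the 5′ end of the canonical transcript, with negative values upstream.

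At 9 of the 10 Klf genes an interval lay within 1 kb of the start, and 8 had a summit of at least 20-fold there. Among all protein-coding genes, 83.2% had any interval, 75.8% had one within 1 kb of the start and 47.0% had a start summit of at least 20-fold. The count of 9 genes with an interval was thus near that of genes in general, while start summits of at least 20-fold were present in 8 of 10. The median start summit of the 9 genes was 62.1-fold, against 28.5-fold for the 16410 genes with a start summit. Klf13 had the highest at 103.6-fold, above 99.7% of genes, and Klf1 the lowest at 2.82-fold, above 30.1% of genes.

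**Figure D1:**
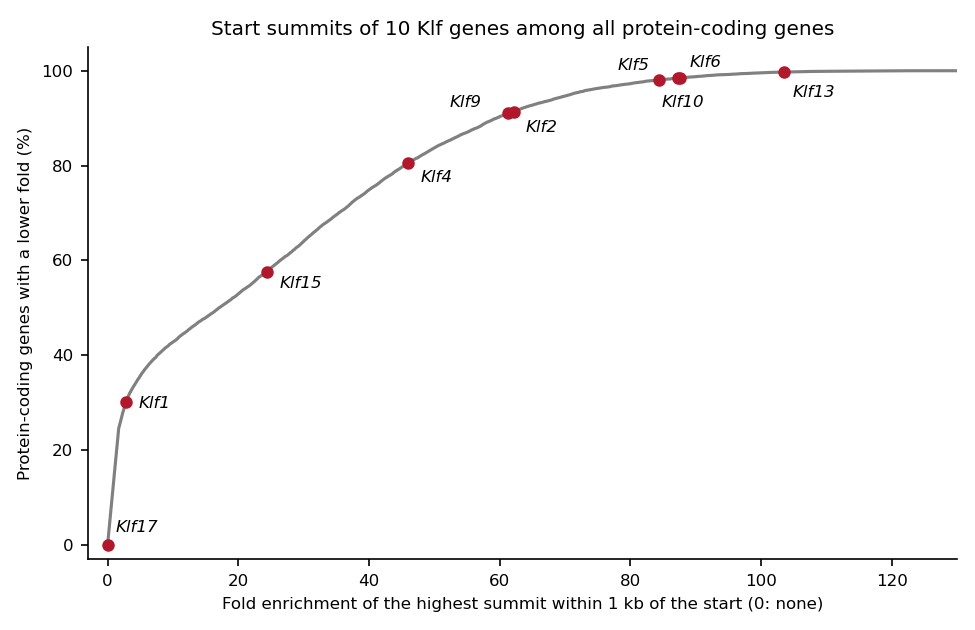
Fold enrichment of the highest summit within 1 kb of the start (horizontal axis, 0 for none, 1 gene above 130-fold not shown) against the percent of protein-coding genes with a lower value (vertical axis). The grey line is all 21757 genes and the red points are the 10 Klf genes, of which Klf13, Klf6, Klf10 and Klf5 lie above 98.0% of genes.

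The strongest summits of the 9 genes are given in levels, set only by whether their counting intervals overlapped. These intervals leave out variation between mice and the choice of the highest summit of each gene. Klf13 was highest at 103.6-fold (counting interval 98.5 to 108.8). Klf6 at 87.5-fold (82.9 to 92.4), Klf10 at 87.3-fold (82.7 to 92.2) and Klf5 at 84.5-fold (79.9 to 89.2) followed, and their intervals overlapped one another. Klf2 at 62.1-fold (58.2 to 66.2) and Klf9 at 61.3-fold (57.4 to 65.3) formed the next level. Klf4 at 46.0-fold (42.6 to 49.5) and Klf1 at 41.0-fold (37.9 to 44.4) were not separated by counting error, and Klf15 was lowest at 34.2-fold (31.4 to 37.3). The summit of Klf1 may belong to a neighbouring gene, as described below. The intervals did not overlap between one level and the next. The median over these 9 genes was 62.1-fold, and over the 18102 genes with an interval it was 30.8-fold.

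The intervals at the Klf genes ran from weak to strong. Of the 42 intervals, 22 (52.4%) had a highest summit under 5-fold, against 75.5% of all intervals, and 12 (28.6%) had one of at least 20-fold, against 5.59%. Their median was 3.63-fold, against 2.55-fold for all intervals. All intervals include those away from gene regions, and the shares among intervals at gene regions alone were not taken. The 12 include the upstream interval of Klf9, whose highest summit lies outside the region. They also include the start interval of Klf1, whose highest summit cannot be assigned to Klf1, as described below. The number per gene had a median of 4, the same as for all genes. The share of the region inside intervals was higher, with a median of 76.2% over the 10 genes against 16.7% over all genes, and 8 of the 10 regions were covered for at least 50%, against 21.5% of genes. The Klf regions were shorter, with a median of 12085 bp against 22173 bp, and the part of length in the coverage was not tested. The longest of them, Klf13 at 55565 bp, was the most covered.

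**Figure D2:**
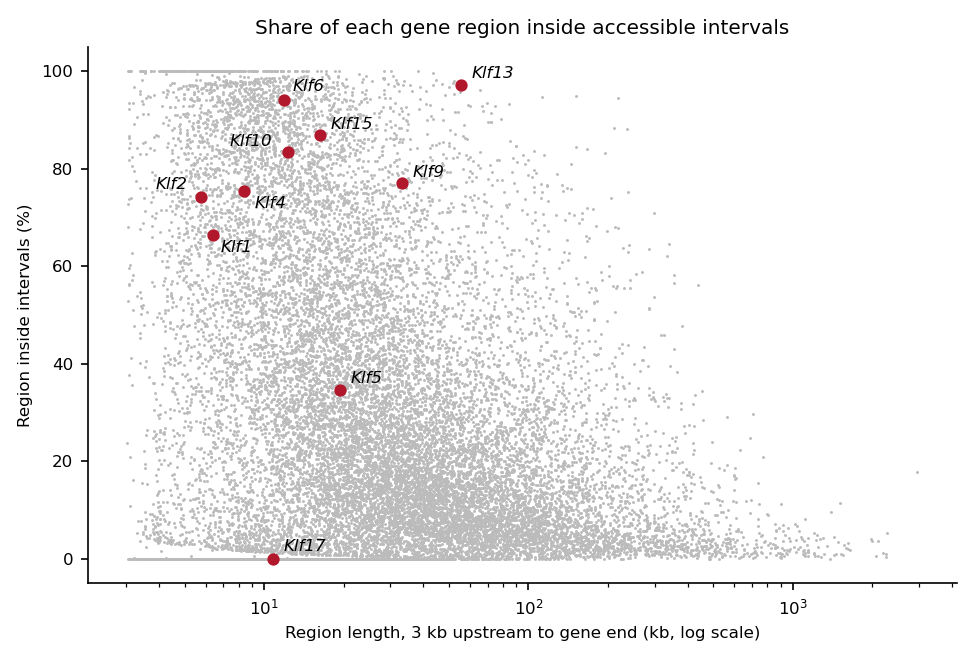
Percent of each gene region inside accessible intervals (vertical axis) against the region's length in kb (horizontal axis, log scale), with all protein-coding genes in grey and the 10 Klf genes in red. Klf13 lies near the top of the genes of its length at 97.3% covered, while Klf5 is covered for 34.8% and Klf17 for 0%.

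Among the activators, Klf6, a gene induced early after tissue injury, had the largest share of its region inside intervals. Klf6 (chr13:5911481-5920393, plus strand) had 2 intervals, which together covered 94.2% of its region, and the larger, chr13:5908949-5919073, spanned 10125 bp with 22 summits. The highest summit stood 154 bp upstream of the start at 87.5-fold (-log10 q 2059). The next highest were 17.02-fold at +2245 and 15.1-fold at +552, both in intron 1, and lower summits continued to the 3′ end, at 4.45-fold at +7413. The second interval, chr13:5919298-5922005, reached 18.5-fold at +9023, just past the end of the transcript and outside the region. The lncRNA B230207M22Rik starts 130 bp from the strongest summit. The 101 bases centred on each of these summits are shown on the strand of Klf6 because they are the strongest window at the start and the strongest distant window, with CCAAT boxes on either strand in capitals.
Klf6 at -154, chr13:5911277-5911377: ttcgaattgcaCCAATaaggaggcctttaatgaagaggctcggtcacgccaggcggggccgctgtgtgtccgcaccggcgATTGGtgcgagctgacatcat
Klf6 at +9023, chr13:5920454-5920554: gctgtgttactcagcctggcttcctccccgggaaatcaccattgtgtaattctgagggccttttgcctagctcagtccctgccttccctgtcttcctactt
The start window holds a CCAAT box on each strand, near either end, and the window past the gene holds none of the motifs searched.

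Klf5, a factor of proliferating epithelia that is also known from the collecting duct, showed a compact pattern. Klf5 (chr14:99536086-99552473, plus strand) had 6 intervals, and its start interval chr14:99534862-99539536 held 9 summits. The highest was 84.5-fold, 59 bp upstream (-log10 q 1967), and 37.0-fold at +389 and 38.8-fold at +554 lay in the coding part of exon 1. One annotated Klf5 transcript starts at +504. An upstream interval reached 6.09-fold at -2842, and the 4 intervals in intron 3 and exon 4 were between 1.83-fold and 3.08-fold. Klf5 had the lowest covered share of the 9 genes with an interval, at 34.8%. The window on its strongest summit carries a CCAAT box on the minus strand, in capitals.
Klf5 at -59, chr14:99535977-99536077: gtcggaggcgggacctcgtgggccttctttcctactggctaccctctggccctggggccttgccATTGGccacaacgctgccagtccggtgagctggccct

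Klf4, known from barrier epithelia, podocytes and reprogramming to pluripotency, had its height spread over several summits. Klf4 (chr4:55527139-55532528, minus strand) had 2 intervals. The larger, chr4:55529480-55535890, held 14 summits, with 46.0-fold at -208 (-log10 q 887), 36.3-fold at -494 and 32.3-fold at +2073 in the coding part of exon 3. The other interval reached 2.49-fold in the 3′ untranslated part of exon 5. The summit at +2073 is thus 1 of the few strong summits of these genes within coding sequence. The lncRNA Gm34343 starts 62 bp from the strongest summit. That window is the richest in GC boxes among those shown, with 3 GC boxes, read on the strand opposite to the one printed, and 1 E-box in capitals, the first 2 GC boxes overlapping at their ends.
Klf4 at -208, chr4:55532624-55532724: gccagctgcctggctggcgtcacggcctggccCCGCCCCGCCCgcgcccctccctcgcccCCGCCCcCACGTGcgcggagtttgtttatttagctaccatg

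Klf2, which endothelial cells switch on under flow, had nearly all of its height at 1 position. Klf2 (chr8:73072726-73075502, plus strand) lies inside the gene body of Eps15l1, which runs on the minus strand, and had 2 intervals. The start interval chr8:73071217-73075034 reached 62.1-fold at +79 (-log10 q 1322) in the 5′ untranslated part of exon 1, and its next highest summit was 12.8-fold at +748 in exon 2. The other interval, at -2165, was weaker than the median of all intervals. The endothelial markers listed for comparison (Pecam1, Kdr and Tek) all had a start summit, and these were between 2.03-fold and 8.64-fold. Whether endothelial cells account for the Klf2 summit was not tested.

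Klf1, the regulator of globin genes in red cell precursors, was the exception among the activators. Klf1 (chr8:85628557-85631934, plus strand) had 4 intervals, and its highest summit within 1 kb of the start was 2.82-fold at +137 (counting interval 2.04 to 3.79). Its strongest summit, 41.0-fold (-log10 q 762), lay at +1315 in the coding part of exon 2, inside the interval chr8:85627956-85630736. The other summits in the Klf1 intervals were all between 1.96-fold and 3.14-fold. The strongest summit also lies in the first exon of a transcript of the neighbouring gene, chr8:85629290-85630139. That gene is Gcdh, for glutaryl-CoA dehydrogenase of lysine breakdown, on the minus strand, and 1 of its 19 annotated transcripts starts 267 bp from the summit. ATAC-seq reads carry no strand of a gene, so the summit cannot be assigned to Klf1 or to Gcdh. The canonical start of Gcdh, 8007 bp upstream of that of Klf1, had a 54.6-fold summit of its own. Among erythroid markers, Hba-a1, Hbb-bt and Gata1 had no start summit and Epor reached 10.7-fold, and the part of erythroid cells in the Klf1 values was not tested.

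**Figure D3:**
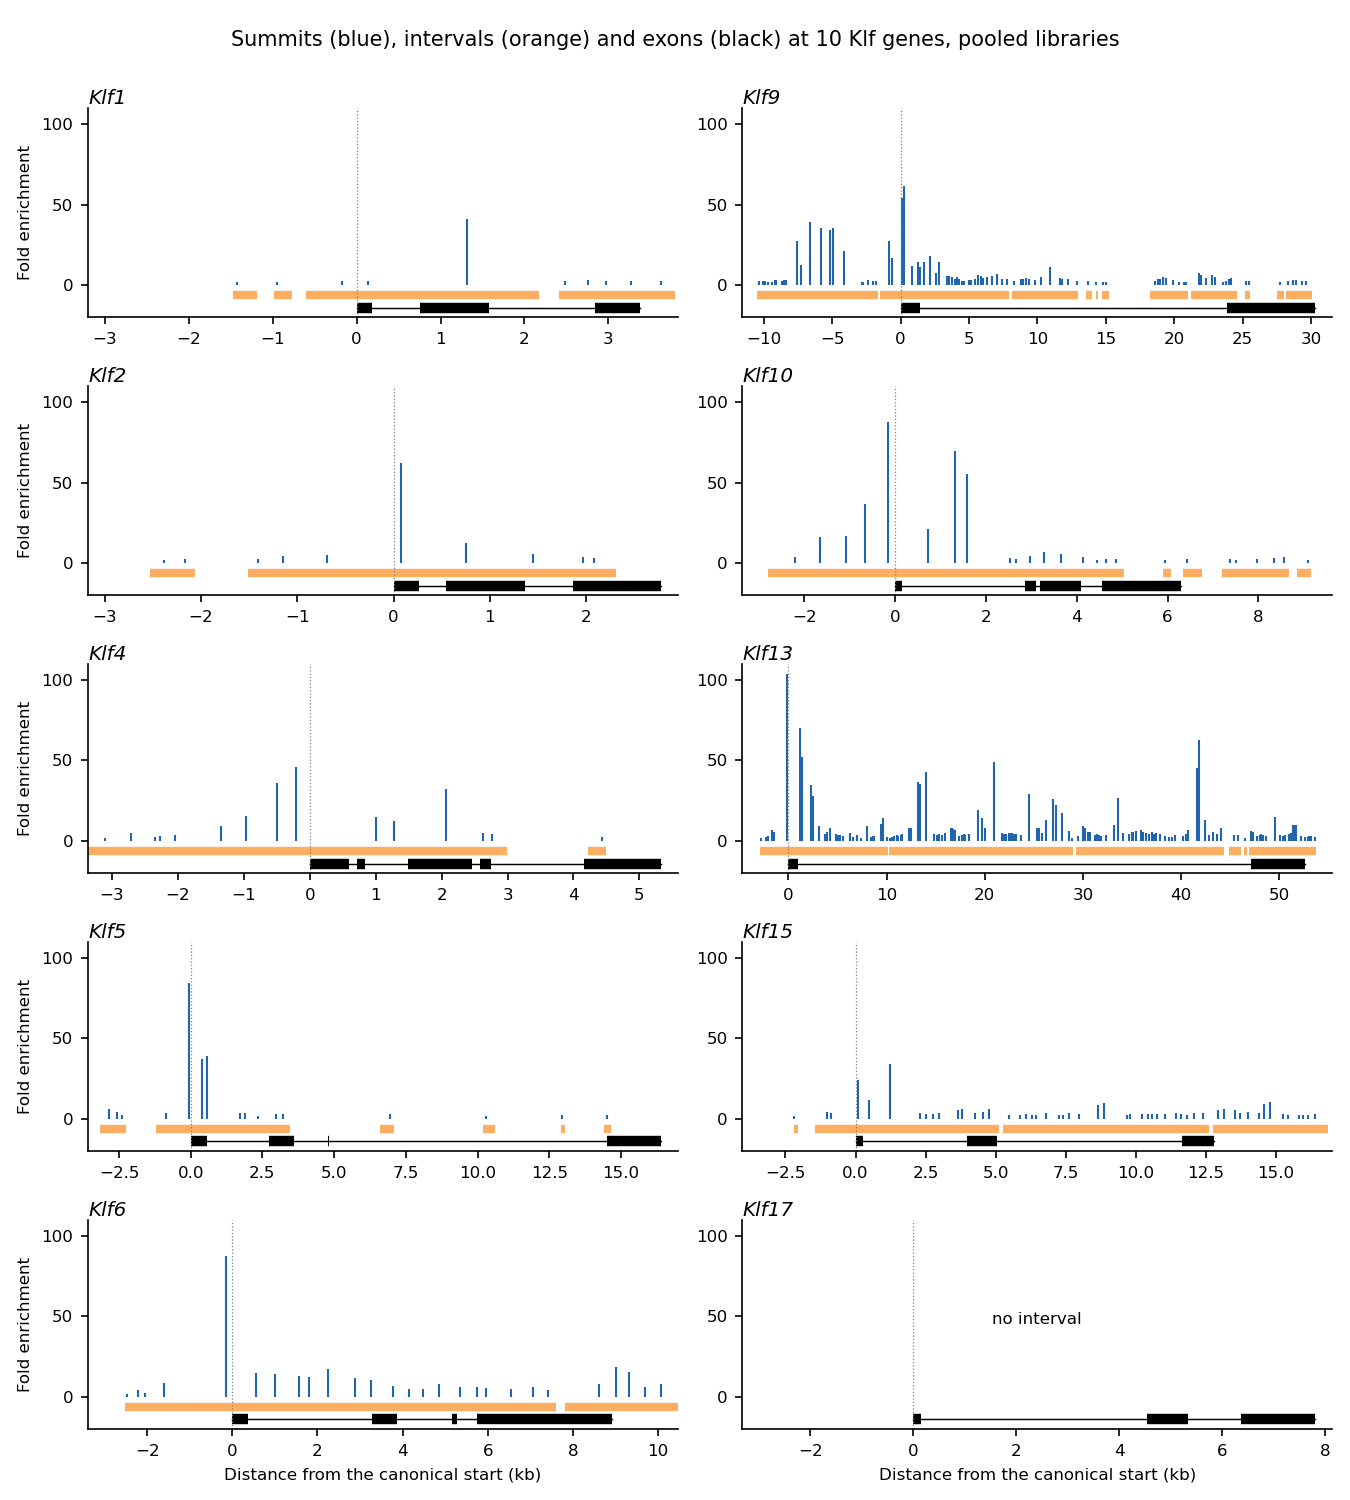
Maps of the 10 Klf genes from the pooled peak list, each drawn 5′ to 3′ with the distance from the canonical start in kb (horizontal axis, own scale per gene) and fold enrichment (vertical axis, same scale). Blue lines are summits, orange bars intervals and black boxes the exons of the canonical transcript. Most genes have their highest line at the dotted start, Klf1 and Klf15 have theirs downstream of it, Klf13 has tall lines through its intron, and Klf17 is empty.

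Of the Sin3-binding members, Klf13, an activator of chemokine expression in T cells that is also found widely in other tissues, had the strongest and the most extended signal. Klf13 (chr7:63536099-63588663, minus strand) had 6 intervals with 138 summits inside the region, 15 of them at least 20-fold. The start interval chr7:63578517-63591576 reached 103.6-fold at -146 (-log10 q 2551), higher than 99.975% of all intervals, followed by 70.1-fold at +1157 and 51.9-fold at +1355 in intron 1. Klf13 was also the only 1 of the 10 genes with a summit of at least 20-fold more than 3 kb from its start and inside its region, a feature of 14.1% of all protein-coding genes, and it had 10 of them. All 10 lay in intron 1, between +13187 and +41857. The highest was 62.7-fold at +41857 (counting interval 58.7 to 66.8), in the interval chr7:63544278-63559358. Next came 49.4-fold at +20961, in an interval of 18666 bp with 49 summits, chr7:63559711-63578376, then 45.1-fold at +41595 and 43.0-fold at +14054.

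Some of the Klf13 intronic summits lie at annotated starts. The lncRNA Gm27252 starts 4 bp from the summit at +41857, and 1 of the 4 Klf13 transcripts starts at +14045, beside the summit at +14054. Other Klf13 transcripts start at +2583 and +2614, near summits of 34.8-fold at +2322 and 28.2-fold at +2532. The lncRNA Gm73537 starts 38 bp from the summit at +2322 and 248 bp from that at +2532. Another lncRNA, Gm57239, starts 99 bp from the 26.8-fold summit at +33536. No transcript start of Klf13 or of another gene is annotated within 500 bp of the summit at +20961, which lies inside the small protein-coding gene E030018B13Rik (chr7:63566605-63570287, plus strand). The 3′ untranslated part of exon 2 reached 15.1-fold at +49523. The start window and the intronic window are shown because they are the highest summit of all 10 genes and the highest one more than 3 kb from the start of Klf13.
Klf13 at -146, chr7:63588759-63588859: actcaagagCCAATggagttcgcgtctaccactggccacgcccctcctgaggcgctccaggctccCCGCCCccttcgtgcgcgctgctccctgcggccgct
Klf13 at +41857, chr7:63546756-63546856: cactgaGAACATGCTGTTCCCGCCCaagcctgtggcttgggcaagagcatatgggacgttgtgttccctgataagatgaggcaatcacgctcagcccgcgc
Capitals in the start window mark a CCAAT box and a GC box, the latter read on the strand opposite to the one printed. Those in the intronic window mark a glucocorticoid half-site pair followed directly by the letters of a GC box on the strand opposite to the one printed. The pair was searched as G, any base, ACA, 3 of any base, TGT, any base and C, and it matched in 839 of the 279569 windows of 101 bases on the highest summit of each interval (0.300%). The match is a description of the letters, and binding was not measured.

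Klf10, named as an early gene induced by TGF-β, had several strong summits close together. Klf10 (chr15:38291703-38300959, minus strand) had 5 intervals, and chr15:38295928-38303758 held 17 summits. The highest was 87.3-fold at -155 (-log10 q 2053). Intron 1 held 69.7-fold at +1328, 55.5-fold at +1578 and 21.3-fold at +729, and 36.5-fold stood at -659. Annotated Klf10 transcripts start at +920, +1633 and +1876, the second of them close to the summit at +1578. The lncRNA Gm35248 starts 1 bp from the strongest summit. The other 4 intervals lay towards or past the 3′ end of the canonical transcript and were between 1.70-fold and 3.54-fold. The window on the strongest summit has no capitals, as the only printed start window without any of the motifs searched. The start window of Klf2, which is not printed, holds none of them either.
Klf10 at -155, chr15:38301064-38301164: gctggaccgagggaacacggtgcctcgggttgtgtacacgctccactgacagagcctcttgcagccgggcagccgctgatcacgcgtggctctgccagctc

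Klf9, a target of glucocorticoid and thyroid hormone receptors, had the most intervals. Klf9 (chr19:23118187-23148497, plus strand) had 11, and 77.1% of its region was covered. The start interval chr19:23116712-23126131 held 30 summits, with 61.3-fold at +229 (-log10 q 1298) and 54.0-fold at +107, both in the 5′ untranslated part of exon 1. The upstream interval chr19:23107659-23116511 overlapped the region only by its end, and its strong summits lay outside the region. Of these, 6 reached at least 20-fold between -7552 and -4177, and 4 of the 6 lie within 500 bp of an annotated lncRNA start. Within the gene, the highest summit of intron 1 was 17.9-fold at +2115, and a 14.5-fold summit at +2824 lay beside a second Klf9 transcript start at +2821. Farther along the intron, separate intervals had their highest summits at 11.3-fold at +10942 and 7.27-fold at +21810.

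Klf15, a glucocorticoid-induced regulator of amino acid and lipid metabolism that is also known from podocytes, had the lowest strongest summit of the 9 genes. Klf15 (chr6:90438998-90452220, plus strand) had 4 intervals and 86.9% of its region covered. Its start summit was 24.4-fold at +96 (counting interval 22.0 to 27.0), above 57.6% of genes. The strongest summit, 34.2-fold (-log10 q 596), lay at +1219 in intron 1 of the canonical transcript, in the interval chr6:90438001-90444556. For 2 of the 14 annotated Klf15 transcripts this position is exonic. Lower summits followed through the gene, at 9.82-fold at +8873 in intron 2 and 10.5-fold at +14792, past the gene. Klf15 thus combined broad coverage with a start summit near the middle of the range of all genes. Of podocyte markers, Nphs1 had a start summit of 3.14-fold and Podxl one of 17.4-fold, and their part in the Klf15 values was not tested.

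Klf17, a factor of germ cells and the early embryo, had no interval and no summit in its region (chr4:117615033-117622845, minus strand), also before the authors' filters. The nearest intervals lay 5375 bp upstream of the start, at 3.73-fold, and 20026 bp past the gene end, at 2.88-fold. A gene with no interval is not shown to be closed, since the list holds only summits that passed the caller's limit, of which the lowest was 1.70-fold. The bases around 150 bp upstream of its start are shown, with a CCAAT box in capitals. This window was set by distance and holds no summit, unlike the windows above, which are centred on summits.
Klf17 at -150, chr4:117622945-117623045: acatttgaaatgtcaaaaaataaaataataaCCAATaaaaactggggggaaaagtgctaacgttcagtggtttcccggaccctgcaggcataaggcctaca
The GC content of this window is 39.6%, and that of the start windows shown above is between 58.4% for Klf6 and 73.3% for Klf4. The strongest windows of Klf1, Klf2, Klf9 and Klf15 overlap untranslated parts of exons and are not printed.

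Promoter sequence, taken as 250 bases before to 50 after the canonical start, differed among the 10 genes. The ratio of observed to expected CpG was at least 0.6 in 7 of 10, against 43.3% of all promoters, with medians of 0.795 and 0.517. Klf1 was lowest at 0.174, then Klf17 at 0.346 and Klf9 at 0.587, while Klf15 at 1.02 and Klf4 at 0.970 were highest. Klf1, with the lowest ratio, had the lowest start summit of the 9 genes with one, at 2.82-fold. Klf15, with the highest ratio, came next at 24.4-fold, which was still above 57.6% of all genes. Over all genes, a start summit of at least 20-fold was present in 78.5% of the 9431 genes with a ratio of at least 0.6 and in 23.0% of the other 12326.

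**Figure D4:**
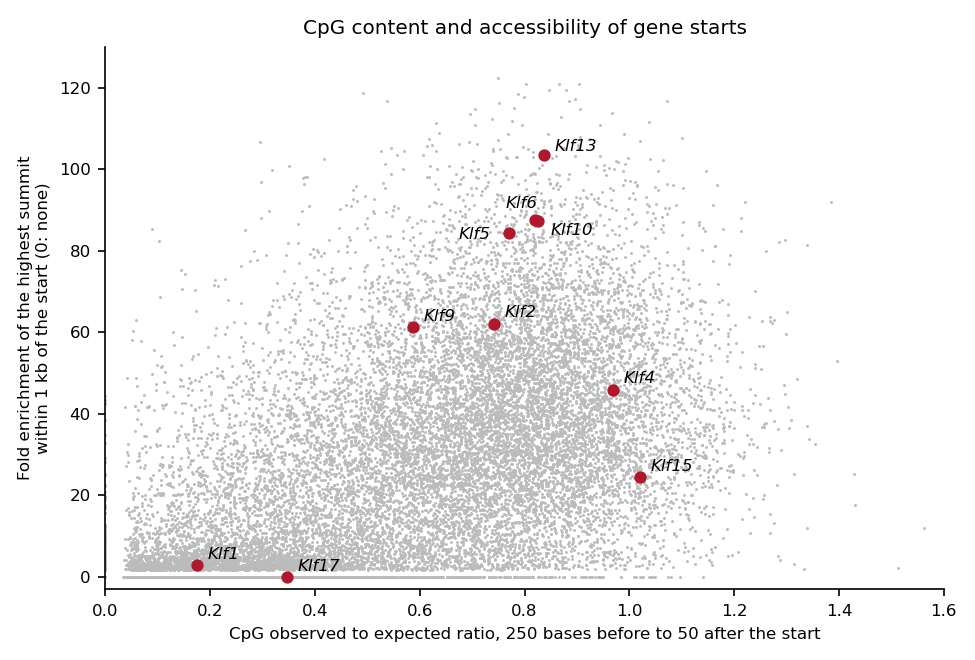
Fold enrichment of the highest summit within 1 kb of the start (vertical axis, 0 for none, 1 gene above 130-fold not shown) against the CpG observed to expected ratio of the promoter (horizontal axis) for all protein-coding genes (grey) and the 10 Klf genes (red). Klf1 and Klf17 lie at the lower left, and Klf15 has the highest ratio of the 10 but a start summit of 24.4-fold.

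Exact letters of known motifs were searched on both strands of these promoters. The GC box (GGGCGG), which KLF and Sp proteins bind, was present in 8 of the 10 Klf promoters and in 42.5% of all promoters, and was missing in Klf1 and Klf9. The CCAAT box (CCAAT), bound by NF-Y, was present in 8, against 39.9%, and was missing in Klf2 and Klf4. The E-box (CACGTG), bound by basic helix-loop-helix factors, was found in Klf4, Klf6 and Klf15, against 7.82% of promoters. The long CACCC box (CCACACCC) was found only in Klf17, against 4.11%, and the short one (CCACCC), which may overlap other GC-rich matches, in Klf2, Klf5, Klf13 and Klf17, against 32.5%. None of the 10 held a TATA box (TATAAA, 13.2% of promoters), a cAMP response element (TGACGTCA, 2.45%), an AP-1 site (TGANTCA, 7.15%) or the glucocorticoid half-site pair (0.381%). The GC content of the Klf promoters had a median of 65%, against 54.3%, and its part in the GC box count was not tested.

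At 6 of the 9 genes with an interval the strongest summit lay within 500 bp of a transcript start of another gene, against 40.2% of genes with an interval. Besides Gcdh at Klf1, these were lncRNAs at Klf4, Klf6, Klf9, Klf10 and Klf13. A summit beside 2 starts cannot be assigned to either. Of the 8 start summits of at least 20-fold, 5 lay upstream, between -208 and -59 (Klf4, Klf5, Klf6, Klf10 and Klf13), and the quartiles of such summits over all genes were at -51, 4 and 88.

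The rest of the KLF and Sp family was read beside them. Of 17 such genes (8 Klf and 9 Sp), 16 had an interval, all 16 of them within 1 kb of the start, and 9 had a start summit of at least 20-fold, against 8 of the 10 genes described above. Their strongest summits had a median of 47.5-fold over those with an interval and ran from 4.58-fold at Klf14 to 101-fold at Sp4. Klf18, annotated as a pseudogene in the neighbourhood of Klf17, was the other family member with no interval. KLF cofactors and upstream regulators, such as the CtBP and Sin3 corepressors, acetyltransferases, MAP kinases that induce Klf2 and Klf4, MEF2 factors and the glucocorticoid and mineralocorticoid receptors, made up a list of 17 genes. All 17 had a start interval, 14 had a start summit of at least 20-fold, and their strongest summits had a median of 43.1-fold, from 21.8-fold at Mef2c to 93.4-fold at Wwp1, a ubiquitin ligase that acts on KLF proteins. Klf13 at 103.6-fold had the highest value of all these genes, and that of Sp4 lay inside the counting interval of Klf13. Of the 17 other KLF and Sp genes, 3 had a summit of at least 20-fold more than 3 kb from their start. So did 7 of the 17 cofactors and regulators, all counted inside the gene regions.

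**Figure D5:**
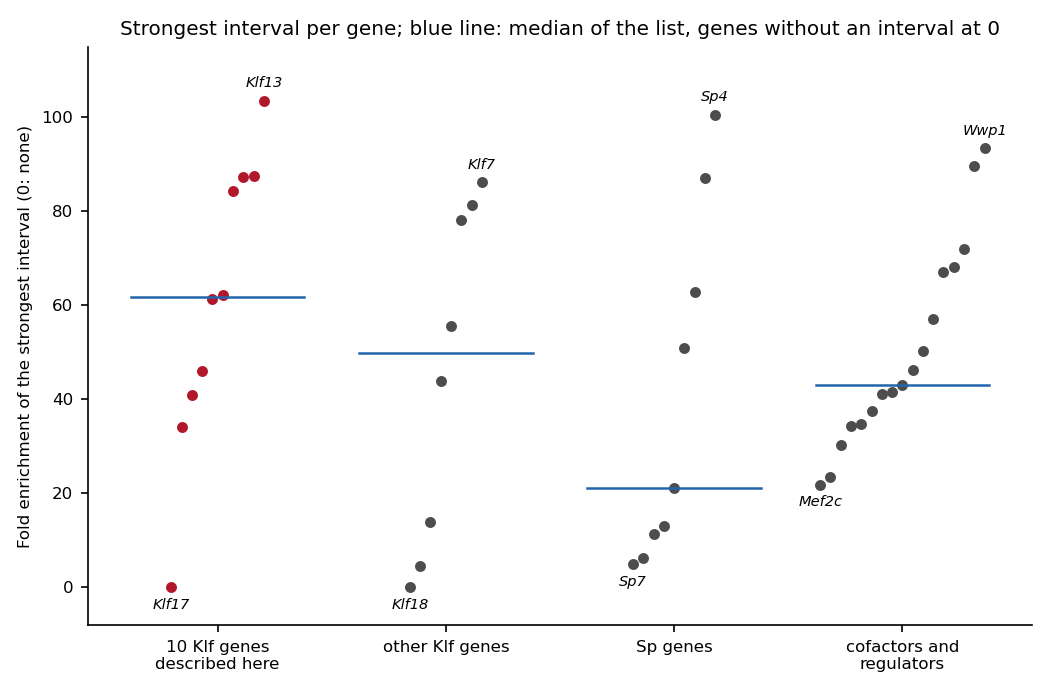
Fold enrichment of the strongest interval of each gene (vertical axis, 0 for none) for the 10 Klf genes (red), the other Klf genes, the Sp genes and the list of cofactors and regulators (grey), with the highest and lowest gene of each list named. Blue lines are the medians with genes without an interval at 0, at 61.7-fold, 49.8-fold, 21.1-fold and 43.1-fold.

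The tissue label was checked against marker genes. All 5 proximal tubule markers had a start summit, between 5.30-fold and 33.1-fold, as had all 3 each of thick ascending limb and distal tubule, collecting duct and endothelium and both of stroma. Start summits of immune markers reached at most 3.08-fold and those of markers of other organs at most 3.40-fold, with 2 of 3 and 2 of 4 having one, but summits elsewhere in these genes reached 27.6-fold and 21.0-fold. The start summits of 8 Klf genes, from 24.4-fold upward, were thus above those of most tubule markers, and their cell types of origin cannot be read from the pool.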

How the data were processed

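Nuclei from kidney cortex of 3 WT and 3 Acly cKO mice were profiled by ATAC-seq, and samples were grouped by their genotype labels. By the methods, the authors used fastp for trimming, Bowtie2 2.3.4.3 for alignment to mm39, kept unique reads without duplicates, and called peaks with MACS3 3.0.0 (extsize 200, shift 100, q 0.05), removing blacklisted regions with BEDTools 2.29.1. The deposited list gives the fold enrichment (a ratio), the -log10 of q, a score of 10 times that value, and the summit offset. The deposited list of unfiltered summits gives the same -log10 q. If the shift was positive, as the methods print it, read extensions were not centred on the transposase cut, so summit positions are approximate. The methods name 2 earlier WT datasets that were not analysed here, and the files do not show whether they entered the pool. The depth of each library is unknown.

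Rows were grouped into intervals by coordinates, and each took its highest summit by q. Regions, exons and starts came from GENCODE M39, and sequences from GRCm39. Motifs were exact matches on both strands. No test was run, since the pool gives no replicates: counts and medians stand beside those of all protein-coding genes. The genes named are the 10 members with their start, strongest and most distant strong intervals, and the highest and lowest of each list. Members and lists were chosen with earlier results of these data known. Some marker genes and 1 sequence window are not reported here. Alternative regions, thresholds, overlaps, starts and promoter windows were tried. The fold step was fitted with a tolerance of 0.05 steps, and 100% of values were whole multiples. The scripts, tested on simulated data, used samtools 1.23.1 and Python 3.11.15 with matplotlib 3.10.9, pysam 0.24.0, scipy 1.17.1, pandas 2.3.3 and numpy 2.4.6.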

Additional observations from a re-analysis of the deposited data

How the results depend on the processing

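The number of intervals at the Klf genes was 42 in the list as deposited. It was 93 with 10 kb on either side of each gene, 20 with a fold enrichment of at least 5, and 351 when summits inside the regions were counted in place of intervals. These differ by construction, through a wider region, fewer intervals or another unit. The other regions, q limits and overlap rules gave between 30 and 39. The number of genes with a start interval was 9 under every other start, window, threshold and overlap tried beforehand, and 8 when a summit of at least 5-fold had to lie inside the window, a setting added after seeing the data, which dropped Klf1. The median fold enrichment of the strongest interval was 62.1, and 61.7 both with 10 kb on either side and with Klf17 counted as 0, the latter added after seeing the data. In the promoter window of 500 bases before to 100 after the start, the E-box was found in 5 of 10 Klf promoters in place of 3, and the AP-1 site in 1, that of Klf9, in place of 0. The shares of all promoters in that window were 12.0% and 14.0%. The short CACCC box was found in 6 in place of 4, against 47.8% of all promoters. The GC box and the CCAAT box stayed at 8 each, while their shares of all promoters rose. These shares went from 42.5% to 49.3% for the GC box and from 39.9% to 59.0% for the CCAAT box. Gene by gene, the count of intervals stayed within 1.5 times its value in 50 comparisons with another setting and moved further in 30, and the strongest fold moved in 1 and not in 26. The 1 that moved was Klf1 with 10 kb on either side, which took in the 54.6-fold summit at the start of Gcdh. Choosing the strongest interval by fold in place of q could not move it, since both ranked intervals in the same order. The setting of intervals within 1 kb of the start took the highest summit of the whole interval, wherever it lay. Klf1 thus stayed at 41.0-fold and Klf15 at 34.2-fold, although their highest summits within 1 kb were 2.82-fold and 24.4-fold. Both tallies of interval counts hold comparisons fixed by construction. The count of Klf17 stayed at 0 in every setting but 10 kb on either side. Counting summits in place of intervals moved the count of every other gene. No paired analysis was possible because the peak list is a single pooled call with no column per library, and leaving out a library could not be done for the same reason. The pool limits what can be said: heights have counting error only, and no value reflects variation between mice.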
